A study of Mus musculus with 18 samples.

Results

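Cholesterol synthesis was followed through 7 genes chosen by symbol: the enzymes Hmgcs1, Fdft1, Sqle, Lss, Cyp51 and Dhcr7, and the regulator Insig1. They are 7 of the 55269 genes in the deposited table, and all 7 passed the filter on low values that left 19442 genes for testing. No receptor that takes up cholesterol is among them, so uptake is described below from a separate list. RNA came from the substantia nigra of 3-month-old mice, a part of the midbrain rich in dopamine neurons, with 6 mice and 6 libraries in each of 3 groups. The intact group was wild type (WT) and no treatment is named for it. The AAV-GFP group is labelled as overexpressing green fluorescent protein and the AAV-SIRT3 group as overexpressing SIRT3, a mitochondrial deacetylase, each from an adeno-associated virus (AAV) given about a month earlier. The labels give for the virus no serotype, promoter, dose or target cell, and they do not state that the intact mice underwent surgery, so virus, injection and handling cannot be told apart in any comparison with the intact group.

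Cells make cholesterol from acetyl-CoA through the mevalonate pathway, then join and cyclise isoprenoid units into lanosterol and trim lanosterol to cholesterol. The brain makes nearly all of its own cholesterol because the blood-brain barrier keeps out lipoprotein cholesterol, and myelinating oligodendrocytes and astrocytes are known as strong producers. When sterols in the endoplasmic reticulum are low, the escort Scap carries the transcription factor SREBP2 (gene Srebf2) out of it, and proteases cut SREBP2 free. The freed factor raises most genes of the pathway together. Insig proteins hold Scap back when sterols are high.

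In GENCODE M21 (GRCm38, the assembly also named mm10) the genes are spread over 6 chromosomes and all 7 are protein coding. Chromosome 5 carries both Cyp51 (4081145 to 4104746, minus strand) and Insig1 (28071363 to 28078662, plus strand). Dhcr7 lies on chromosome 7 from 143823145 to 143848410 and Lss on chromosome 10 from 76531588 to 76557138, both on the plus strand. Hmgcs1 lies on chromosome 13 from 119690379 to 119708260 on the plus strand. Fdft1 is at 63145150 to 63179578 of chromosome 14, minus strand, and Sqle on chromosome 15 from 59315077 to 59331192 on the plus strand. Exons of 4 of them overlap exons of a gene on the opposite strand: Fdft1 with Ctsb, Cyp51 with Akap9, Hmgcs1 with Gm48342 and Lss with 4930483K19Rik. The library kit keeps strand, but the strand setting of the counting is not given in the sources used here, so reads of these pairs may not be separated.

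Because the genes varied together across libraries (below), 3 upstream sequences are shown, those of the gene with the highest level per length (Hmgcs1), the gene with the clearest group difference (Lss) and the regulator (Insig1). They come from RefSeq (GRCm38.p6) and end before the earliest annotated start of each gene. Hmgcs1 is chr13:119690101-119690350, Lss is chr10:76531355-76531587 and Insig1 is chr5:28071162-28071362, all on the plus strand and written 5′ to 3′. Capitals mark the sterol regulatory element core TCACNCCAC and the NF-Y box CCAAT, read on either strand, so that CCAAT on the minus strand appears as ATTGG.
Hmgcs1: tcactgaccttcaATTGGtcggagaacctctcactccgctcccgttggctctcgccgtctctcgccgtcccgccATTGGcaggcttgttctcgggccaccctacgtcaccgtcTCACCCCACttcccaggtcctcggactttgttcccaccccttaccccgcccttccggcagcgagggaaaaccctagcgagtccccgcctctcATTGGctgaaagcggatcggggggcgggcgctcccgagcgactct
Lss: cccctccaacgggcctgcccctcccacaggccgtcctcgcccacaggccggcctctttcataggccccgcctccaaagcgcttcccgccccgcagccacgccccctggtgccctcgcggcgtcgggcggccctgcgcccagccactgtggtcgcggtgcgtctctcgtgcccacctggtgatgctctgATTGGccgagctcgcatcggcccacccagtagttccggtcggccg
Insig1: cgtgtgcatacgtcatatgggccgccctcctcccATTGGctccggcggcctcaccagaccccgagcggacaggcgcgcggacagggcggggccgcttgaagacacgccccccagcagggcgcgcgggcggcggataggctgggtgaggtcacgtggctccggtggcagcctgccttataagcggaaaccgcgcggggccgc

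The windows searched were the 250 bases before each RefSeq start of Hmgcs1, Insig1, Lss, Cyp51 and Dhcr7, on both strands, for TCACNCCAC, CCAAT and the Sp1 box GGGCGG, whose letters do not overlap one another. Among the windows of these 5 genes, the sterol element core was found in the Hmgcs1 window, from -137 to -129 relative to the start, and 1.05% of 32851 such windows over all genes hold it. The Hmgcs1 window also holds 3 CCAAT boxes, at -237, -176 and -45 by their first base, and the Insig1, Lss and Cyp51 windows hold 1 each. CCAAT occurs in 33.8% of all windows and GGGCGG in 32.7%. Dhcr7 has 3 listed starts, whose windows hold 0, 0 and 2 CCAAT boxes. A match is a description of the letters and no evidence of binding, and the absence of these letters says nothing about the factor.

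Between 47182420 and 64728400 reads were assigned to genes per library. Values are normalised reads, read counts divided by a size factor for each library. For the 7 genes the counting error was 0.866% to 2.28% of the lowest value, against a coefficient of variation between libraries of 3.22% to 8.66% within groups, so the variation between libraries exceeded the counting error. Sirt3, the delivered gene, had 1824 ± 66.3 normalised reads in the intact group, 1775 ± 92.4 with AAV-GFP and 1937 ± 79.4 with AAV-SIRT3 (SD, n = 6 each), higher in AAV-SIRT3 than in AAV-GFP in 33 of 36 pairs of libraries but not past the threshold over all genes (log2 fold change 0.13, limma, adjusted p = 0.183). Against intact it was 0.09 higher (adjusted p = 0.148), so overexpression of the labelled gene is not shown by this test. All 7 dopaminergic markers were detected, with summed levels of 39894 to 54130.2 normalised reads for intact mice, 35207 to 45717 for AAV-GFP and 40684 to 48081 for AAV-SIRT3. Some dissections stood apart. Intact replicate 2 and AAV-GFP replicate 5 carried 47955 and 42343 summed normalised reads of 5 choroid plexus markers, against 545 to 5375 in the other 16 libraries, and results are given below also without these libraries.

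Levels were compared between genes per kilobase of annotated exon, in normalised reads. In intact libraries Hmgcs1, the synthase that makes HMG-CoA at the entry to the pathway, was the highest at 3383 ± 286 per kilobase (SD, n = 6), followed by Insig1 at 2291 ± 177. Fdft1 stood at 1462 ± 121, Cyp51 at 1255 ± 109 and Sqle at 880.5 ± 62.2. Dhcr7, at 397 ± 17.7, and Lss, at 259 ± 16.6, were the lowest. Of the neighbours in this order, Fdft1 and Cyp51 overlapped in intact libraries, 1323 to 1666 against 1110.2 to 1409, and the other neighbours did not. The order was the same in AAV-GFP and AAV-SIRT3 libraries, where Fdft1 and Cyp51 did not overlap, and it was the same when the longest transcript was used as the length. The last place of Lss rests on its length, the greatest of the 7 by either measure (10787 and 6992 bases). Undivided, Lss had a mean of 2541 normalised reads over the 18 libraries, above the 2182 of Dhcr7.

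**Figure D1:**
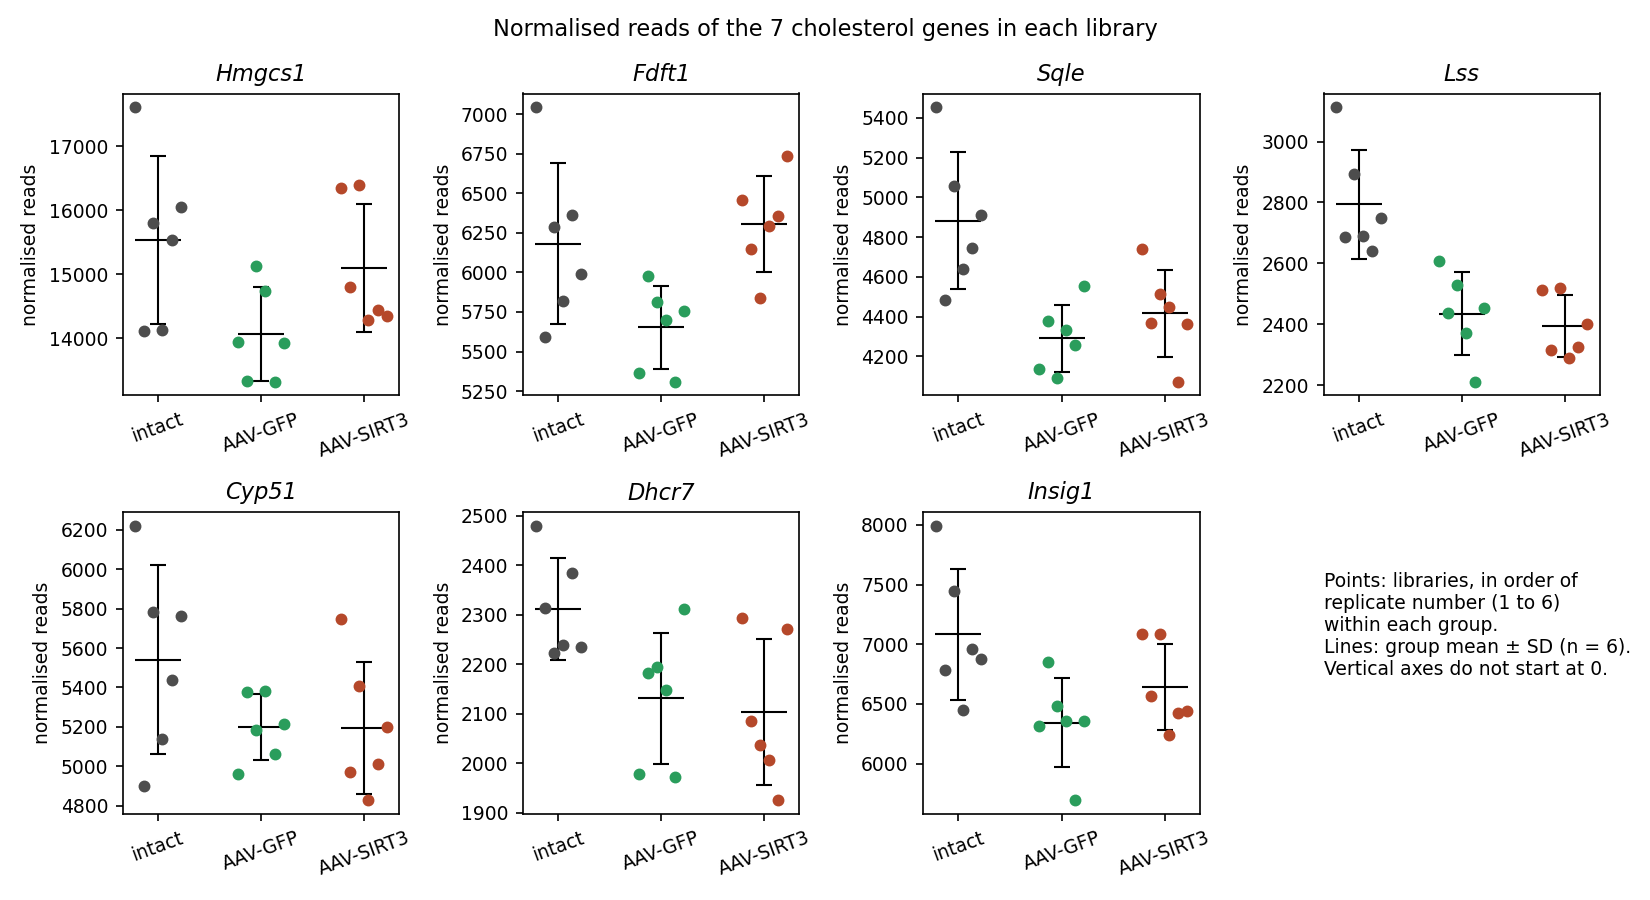
Normalised reads of each of the 7 genes (vertical axes, which do not start at 0) in each library, by group; points are libraries in order of replicate number, long lines group means and bars SD (n = 6). Lss in the 6 intact libraries lies above every AAV library, from 2640.0 against at most 2608, and intact replicate 1 is the highest point in all 7 panels.

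AAV-GFP against intact asks what came with the virus and its control protein. Lss and Sqle, which act one after the other on squalene, were 12.9% and 12.1% lower in AAV-GFP than in intact libraries and passed the test. The other 5 genes had lower means too, by 6.19% to 10.5%, and did not pass. The test was limma on log2(value + 1) with Benjamini-Hochberg adjustment over all 19442 genes at 0.05, and log2 fold changes are given on that scale. It called 358 genes, 1.84% of those tested, of which 160 were higher (0.823%) and 198 lower (1.02%). Of the 7 genes, 6 had an unadjusted p under 0.05 in limma, all lower, as did 9.48% of all genes tested. On the recovered reads edgeR called 2 of the 7 lower and DESeq2 called 3, Insig1 among them. The median log2 fold change was -0.14 over the 7 genes and 0.00074 over all genes tested.

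Fdft1, squalene synthase, joins the isoprenoid farnesyl units into squalene, the point where the pathway commits to sterols. Its lowest, median and highest values were 5593, 6137 and 7043 normalised reads in intact and 5309, 5727 and 5978 in AAV-GFP libraries, ranges that overlapped. The log2 fold change was -0.13 (SE 0.0486, adjusted p = 0.159).

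Sqle, squalene epoxidase, adds the oxygen to squalene and is known as a rate-limiting step of sterol synthesis. It ran from 4486 over a median of 4831 to 5454 in intact libraries and from 4091 over 4294 to 4556 in AAV-GFP libraries. All 6 AAV-GFP libraries were below the intact median, and AAV-GFP was lower in 35 of 36 pairs of libraries, the exception being AAV-GFP replicate 6 above intact replicate 2. The log2 fold change was -0.18 (SE 0.0453, 95% interval -0.28 to -0.09, adjusted p = 0.0387).

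Lss, lanosterol synthase, cyclises the epoxide into lanosterol. It ran from 2640.0 over a median of 2718 to 3113 in intact libraries and from 2212 over 2446 to 2608 in AAV-GFP libraries. The groups did not overlap. The share of all genes without overlap was not counted, here or for the genes below. The log2 fold change was -0.20 (SE 0.0467, 95% interval -0.29 to -0.10, adjusted p = 0.0337).

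Cyp51, the lanosterol demethylase, ran from 4901 over 5599 to 6221 in intact and from 4963 over 5199 to 5383 in AAV-GFP libraries, with a log2 fold change of -0.09 (SE 0.0513, adjusted p = 0.364). All 6 AAV-GFP values lay inside the intact range. Dhcr7, the reductase of the last step in the branch of the pathway that runs through 7-dehydrocholesterol, ran from 2222 over 2276 to 2479.6 in intact and from 1972 over 2166 to 2312 in AAV-GFP libraries. AAV-GFP replicate 6 lay above the intact median and the other 5 below it, with a log2 fold change of -0.12 (SE 0.0502, adjusted p = 0.199).

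Hmgcs1 ran from 14112 over 15668 to 17613 in intact and from 13319.9 over 13937 to 15136 in AAV-GFP libraries, with a log2 fold change of -0.14 (SE 0.053, adjusted p = 0.148). All 6 AAV-GFP libraries lay below the intact median, but 4 of 36 pairs went the other way. Insig1 ran from 6453 over 6919.7 to 7992 in intact and from 5694 over 6358 to 6848 in AAV-GFP libraries. AAV-GFP was lower in 33 of 36 pairs, with a log2 fold change of -0.16 (SE 0.0504, adjusted p = 0.0927).

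**Figure D2:**
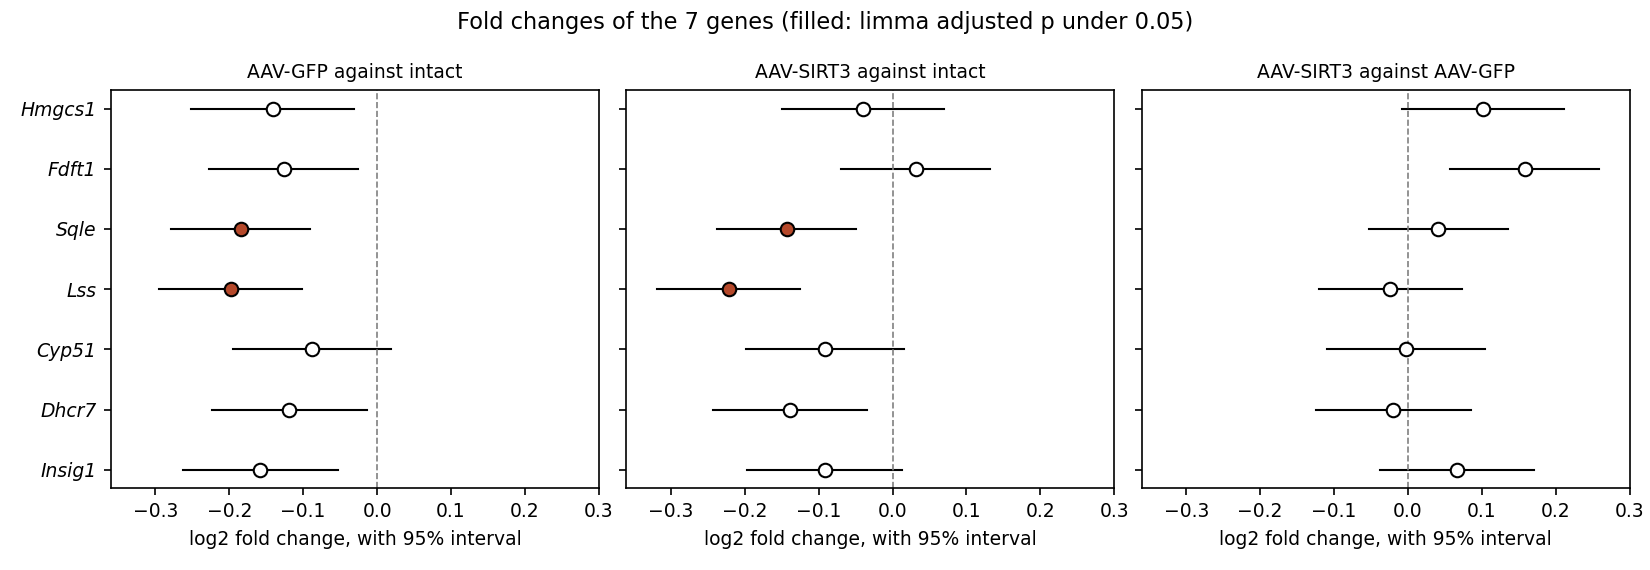
Log2 fold changes (horizontal axes) of the 7 genes in the 3 comparisons with 95% intervals; filled points passed an adjusted p of 0.05 in limma. Lss and Sqle are filled in both comparisons with the intact group, from -0.22 to -0.14, and no point is filled in AAV-SIRT3 against AAV-GFP.

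The AAV-GFP calls of Lss and Sqle lay near the threshold, and leaving out any 1 of several libraries lost them. The Lss call was lost in 7 of the 18 fits that left out 1 library, those without intact replicate 1, 3 or 4 or AAV-GFP replicate 2, 3, 4 or 5, with adjusted p from 0.0517 to 0.0839 and log2 fold changes from -0.21 to -0.17. The Sqle call was lost in the same 7 and without intact replicate 5, with adjusted p from 0.056 to 0.0967 and changes from -0.20 to -0.15. Without both libraries of high choroid plexus markers, Sqle kept its call at -0.21 (adjusted p = 0.0426) and Lss was at -0.18 (adjusted p = 0.0647).

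AAV-SIRT3 against intact uses the same 6 intact libraries, so it does not repeat the comparison above independently. Lss and Sqle passed here too, 14.3% and 9.55% lower in AAV-SIRT3 than in intact libraries. These 2 of 7 are 28.6%, and among all genes 4214 passed, 21.7% of those tested, with 2206 higher (11.3%) and 2008 lower (10.3%). The median log2 fold change was -0.09 over the 7 genes and -0.0049 over all genes.

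Lss ran from 2291 over a median of 2363 to 2519.8 normalised reads in AAV-SIRT3 libraries, all below the lowest intact value of 2640.0. The log2 fold change was -0.22 (SE 0.0467, 95% interval -0.32 to -0.12, adjusted p = 0.00274), and the call was kept in all 18 fits that left out 1 library, with adjusted p of at most 0.00782. Sqle ran from 4072 over 4407 to 4741, lower than intact in 33 of 36 pairs, with a log2 fold change of -0.14 (SE 0.0453, 95% interval -0.24 to -0.05, adjusted p = 0.0281). Its call was lost without intact replicate 1 (-0.11, adjusted p = 0.0675), without intact replicate 3 (-0.13, 0.062) and without AAV-SIRT3 replicate 5 (-0.12, 0.0754).

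Dhcr7 ran from 1925 over 2061 to 2293 in AAV-SIRT3 libraries. AAV-SIRT3 replicate 1 lay above the intact median and the other 5 below it, and the log2 fold change of -0.14 (SE 0.0502, adjusted p = 0.0527) missed the threshold. It passed in edgeR (adjusted p = 0.0411) and DESeq2 (adjusted p = 0.0434) on the recovered reads, and in 5 of the 18 fits that left out 1 library, when 1 of AAV-GFP replicates 1, 5 and 6 or AAV-SIRT3 replicates 1 and 6 was dropped, the lowest adjusted p being 0.029.

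The other 4 genes overlapped the intact libraries and did not pass. Cyp51 ran from 4828 over 5105 to 5746 in AAV-SIRT3 libraries (log2 fold change -0.09, SE 0.0513, adjusted p = 0.216). Insig1 ran from 6238 over 6504 to 7085 (-0.09, SE 0.0504, adjusted p = 0.202). Hmgcs1 ran from 14292 over 14614 to 16394, higher than intact in 18 of 36 pairs and lower in 18 (-0.04, SE 0.053, adjusted p = 0.632). Fdft1, from 5841 over 6326 to 6737, was the member with a mean above intact (0.03, SE 0.0486, adjusted p = 0.69).

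AAV-SIRT3 against AAV-GFP asks what SIRT3 added beyond the virus. None of the 7 genes passed in limma, and none did in edgeR or DESeq2 on the recovered reads. Of the 7, 1 had an unadjusted p under 0.05, a share near the 15.2% of all genes tested that did. Over all genes limma called 22, 0.113% of those tested, with 7 higher (0.036%) and 15 lower (0.0772%). The median log2 fold change was 0.04 over the 7 genes and -0.0041 over all genes.

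That gene was Fdft1, at 5652 ± 263 normalised reads with AAV-GFP and 6305 ± 301 with AAV-SIRT3 (SD, n = 6 each). AAV-SIRT3 was higher in 35 of 36 pairs, and all 6 AAV-SIRT3 libraries lay above the AAV-GFP median. The log2 fold change was 0.16 (SE 0.0486, 95% interval 0.06 to 0.26), with an unadjusted p of 0.00377 and an adjusted p of 0.152 in limma. Over the 18 fits that left out 1 library the change ran from 0.14 to 0.18 and the adjusted p from 0.0502 to 0.327. Over 20 other alternative fits it ran from 0.08 to 0.16, the lowest being that with the dopaminergic score as a covariate (adjusted p = 0.545). The median log2 fold change of the 7 dopaminergic markers in this comparison was 0.20, and their part in the Fdft1 difference was not tested. The gene Ctsb, whose exons overlap those of Fdft1 on the opposite strand, differed by 0.01 (adjusted p = 0.897) in the same comparison, at 36511 ± 1095 and 36857 ± 1332 normalised reads, and rose by 0.11 in AAV-SIRT3 against intact (adjusted p = 0.0301).

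For the other 6 genes the 95% intervals of the log2 difference between the AAV groups bound what could have been missed. Hmgcs1 was at 0.10 (interval -0.01 to 0.21, adjusted p = 0.364), Insig1 at 0.07 (-0.04 to 0.17, 0.554) and Sqle at 0.04 (-0.05 to 0.14, 0.706). Cyp51 was at -0.0028 (-0.11 to 0.10, 0.987), Dhcr7 at -0.02 (-0.12 to 0.09, 0.893) and Lss at -0.02 (-0.12 to 0.07, 0.851). The proportions between members also differed in their means: Fdft1 over Sqle was 1.27 ± 0.0434 for intact, 1.32 ± 0.0652 for AAV-GFP and 1.43 ± 0.104 for AAV-SIRT3 (SD, n = 6 each), a ratio chosen after its values were seen and given with no test.

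The other overlapping genes were at these levels. Akap9, which overlaps Cyp51, was 7266 ± 474 normalised reads in intact and 6076 ± 582 in AAV-SIRT3 libraries and fell by 0.26 (log2, adjusted p = 0.00858), while Cyp51 did not pass. Gm48342, which overlaps Hmgcs1, had 23.3 ± 9.28 normalised reads in intact libraries and 4930483K19Rik, which overlaps Lss, had 5.84 ± 2.32, both far below their partners.

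The 7 genes varied together from library to library. All 21 pairs had a positive Pearson correlation over the 18 libraries, from 0.32 for Fdft1 with Lss to 0.81 for Sqle with Cyp51, with a median of 0.67. With each group's mean removed, the 21 pairs stayed positive, from 0.36 to 0.82 with a median of 0.62, so the pattern is present within groups. These values share libraries, dissections and size factors and are a description. Over the 15244 genes with a mean of at least 50 normalised reads, the correlation with the mean of the 7 genes had a median of -0.0073 and a range from the 5th to the 95th percentile of -0.56 to 0.54.

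**Figure D3:**
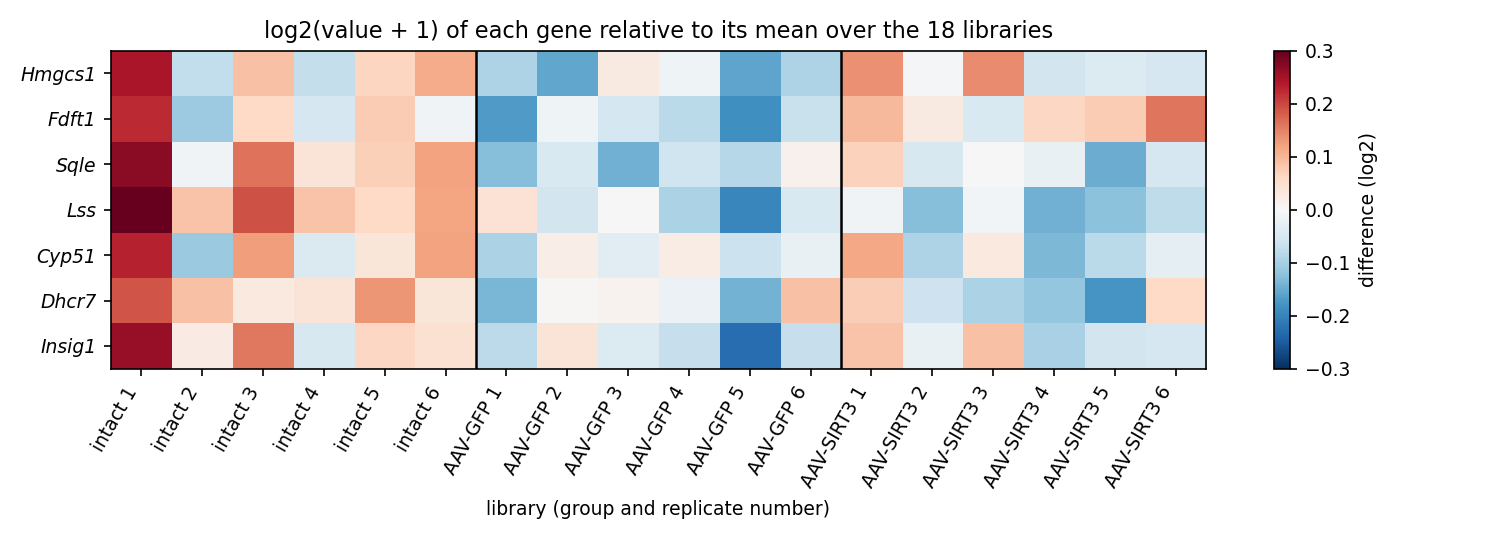
Each gene (rows) in each library (columns, by group) as the difference of its log2(value + 1) from its own mean over the 18 libraries, red for higher and blue for lower. Intact replicate 1 is red in all 7 rows, from 0.19 to 0.30, and AAV-GFP replicate 5 is blue in all 7, from -0.23 to -0.07.

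Intact replicate 1 was the highest of the 18 libraries for all 7 genes, on average 0.25 (log2) above each gene's mean. Intact replicate 3 followed at 0.12, and AAV-GFP replicate 5 was the lowest at -0.15, with the lowest value of 4 of the 7 genes. Intact replicates 2, 4, 5 and 6 stood at -0.02, -0.0073, 0.0717 and 0.0775, all below the AAV-SIRT3 replicate 1 value of 0.0817. The 6 intact libraries thus ran from -0.02 to 0.25 and the 12 AAV libraries from -0.15 to 0.08.

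By a rule, genes outside the set were named from the 8 with the highest correlation with the mean of the 7 over the 18 libraries. Among them were Syt2 with 0.90 (0.84 with group means removed), a synaptic vesicle calcium sensor, and Pax5 with 0.89 (0.85), a transcription factor of the midbrain and of B cells. Cyp2s1 had 0.88 (0.78), Plbd2 0.87 (0.86), Camk2g 0.87 (0.88) and Ephb1 0.87 (0.79). Of the 14 other sterol synthesis enzymes, 11 had a positive and 3 a negative correlation, from -0.26 for Pmvk to 0.84 for Sc5d, an enzyme shortly before the end of the pathway. Srebf2 had 0.80 and Insig2 0.08. Cell type markers moved with the set too. All 7 dopaminergic markers were positive, from 0.33 to 0.84 (Slc18a2), and all 8 thalamus markers negative, from -0.78 to -0.45. All 7 astrocyte markers were negative as well, from -0.48 to -0.04, and 6 of 7 microglia markers. Positive values were held by 8 of 10 mature oligodendrocyte markers, up to 0.42, and by all 4 anterior pituitary markers above the level cut. The other marker lists held both signs. Their part in the shared variation was not tested.

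The rest of the pathway was read from lists by role. Of 14 other sterol synthesis enzymes, limma and edgeR called 0 in AAV-GFP against intact and DESeq2 called 1 lower, and 4 had an unadjusted p under 0.05, 1 higher and 3 lower, against 19.1% of all genes. The list's median was -0.08.

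In AAV-SIRT3 against intact, 1 of the 14 rose and 2 fell, with a list median of 0.02. The share called, 21.4%, is that of all genes (21.7%), so the calls below describe single genes and not the list. Pmvk, the kinase of phosphomevalonate, rose by 0.35 (SE 0.0615, adjusted p = 0.000952), from 2275 ± 92.5 to 2915 ± 274 normalised reads with no overlap. Idi1, the isomerase of the isoprenoid unit, fell by 0.28 (adjusted p = 0.00717), and both calls were kept in all 18 fits that left out 1 library. Hsd17b7, which acts on the sterol ring after lanosterol, fell by 0.32 (adjusted p = 0.0274). This call was lost in 5 of those fits, without intact replicate 1 or 6 or AAV-SIRT3 replicate 4, 5 or 6, with adjusted p of at most 0.073.

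Of 8 genes for sterol sensing and SREBP processing, limma called 0 in AAV-GFP against intact, edgeR called 0 and DESeq2 called 1, and 2 had an unadjusted p under 0.05 (19.1% of all genes did). Srebf2 was at 11088 ± 444 for intact, 10124 ± 418 for AAV-GFP and 10590.3 ± 349 for AAV-SIRT3. Its log2 fold change in AAV-GFP against intact was -0.13 (SE 0.0355, adjusted p = 0.057), and AAV-GFP was lower in 35 of 36 pairs. Insig2, the partner of Insig1, was at 3176 ± 58.0, 3129 ± 119 and 3211 ± 163 and did not pass in any comparison (adjusted p from 0.68 to 0.813). In AAV-SIRT3 against intact 1 of the 8 fell (12.5%, against 21.7% of all genes called), the SREBP protease Mbtps1, by 0.10 (adjusted p = 0.0318), a call lost in 6 fits, without intact replicate 2, 4 or 5 or AAV-SIRT3 replicate 1, 2 or 3.

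Of 10 genes of uptake and intracellular transport, limma and edgeR called 0 in AAV-GFP against intact and DESeq2 called 1 lower. In limma 5 had an unadjusted p under 0.05, 1 higher and 4 lower. Over all genes 19.1% had such a p, 9.59% higher and 9.48% lower. Of the 10, 1 rose and 4 fell in AAV-SIRT3 against intact, where 11.3% of all genes rose and 10.3% fell. The list medians were -0.08 and -0.14.

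Lrp1, a large receptor that takes up apolipoprotein E particles, was at 31931 ± 897, 28773 ± 1973 and 26102 ± 1398 in intact, AAV-GFP and AAV-SIRT3 libraries. It fell by 0.29 in AAV-SIRT3 against intact (SE 0.0443, adjusted p = 0.000546), with no overlap and in all 18 fits. In AAV-GFP against intact its change of -0.15 did not pass (adjusted p = 0.0705), although the groups did not overlap. Vldlr, the very-low-density lipoprotein and reelin receptor, fell by 0.14 in AAV-SIRT3 (adjusted p = 0.0174), but by 0.04 with length and GC trends removed. In the same comparison Npc2, which carries cholesterol out of lysosomes, rose by 0.21 (adjusted p = 0.00907). Npc1, the membrane partner of Npc2, fell by 0.16 (adjusted p = 0.0453), a call lost in 11 of the 18 fits, without intact replicate 1, 3 or 4, AAV-GFP replicate 1, 4, 5 or 6 or AAV-SIRT3 replicate 1, 3, 5 or 6, with adjusted p of at most 0.108. Lrp8, another reelin receptor that was named after its values were seen, fell by 0.13 (adjusted p = 0.0485).

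Efflux, carriage, storage and turnover held rises. Of 11 genes tested of 12 listed, 3 rose and 0 fell in AAV-GFP against intact (27.3%, against 1.84% of all genes), with a list median of 0.08, and Hsd3b7 did not pass the filter. Apoe, the main lipid carrier of the brain, rose by 0.34 (SE 0.0555, adjusted p = 0.00436), from 76036 ± 4742 to 96119.7 ± 6393 normalised reads. Clu, a second carrier, rose by 0.22 (SE 0.0401, adjusted p = 0.0101). Neither gene overlapped between the groups, though how common this was over all genes was not counted. Ch25h, the enzyme that makes a signalling oxysterol, rose by 1.68 (SE 0.431, adjusted p = 0.0465) from 9.92 ± 3.73 to 37.3 ± 21.7, a low level, and its call was lost in 11 of 18 fits that left out 1 library, with adjusted p of at most 0.112. These 11 were all but the fits without intact replicate 6, AAV-GFP replicate 1, 4 or 6 or AAV-SIRT3 replicate 4, 5 or 6. The rise of Ch25h was not seen in the other virus group. Its log2 fold change was -0.26 in AAV-SIRT3 against intact and -1.94 in AAV-SIRT3 against AAV-GFP, neither past the threshold in limma.

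In AAV-SIRT3 against intact 2 of the 11 rose and 1 fell, with a list median of 0.01. These are 27.3% of the list, near the 21.7% of all genes. Apoe rose by 0.22 (adjusted p = 0.00919) and Cyp46a1, the neuronal enzyme that turns cholesterol into its exported hydroxylated form, by 0.32 (adjusted p = 0.0126). The value of Cyp46a1 was 0.02 with the thalamus score (adjusted p = 0.89) and 0.11 without intact replicates 1, 3 and 5 (adjusted p = 0.315). Abca1, the exporter that loads apolipoprotein E, fell by 0.24 (adjusted p = 0.0326), a call lost in 8 fits, without intact replicate 2, 3, 4 or 5 or AAV-SIRT3 replicate 1, 2, 5 or 6, with adjusted p of at most 0.0797.

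Of 10 genes of fatty acid synthesis linked to SREBP1, 0 rose and 1 fell in AAV-GFP against intact (list median -0.08). Over all genes 0.823% rose and 1.02% fell there. In AAV-SIRT3 against intact 2 of the 10 rose and 2 fell (list median -0.04, 11.3% of all genes rising and 10.3% falling). Fasn, fatty acid synthase, fell by 0.16 in AAV-GFP (adjusted p = 0.0336) and by 0.14 in AAV-SIRT3 (adjusted p = 0.00946). The AAV-GFP call was lost in the same 7 fits as that of Lss, with adjusted p of at most 0.0765. In AAV-SIRT3, Acaca, which makes malonyl-CoA, fell by 0.20 (adjusted p = 0.00883), while Fads2 rose by 0.11 (adjusted p = 0.0302) and Me1 by 0.13 (adjusted p = 0.0437). The Fads2 call was lost in 6 fits, without intact replicate 1, 2 or 5 or AAV-SIRT3 replicate 1, 3 or 5, and the Me1 call in 8, without intact replicate 2, 3, 4 or 5 or AAV-SIRT3 replicate 1, 2, 3 or 6, with adjusted p of at most 0.107.

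**Figure D4:**
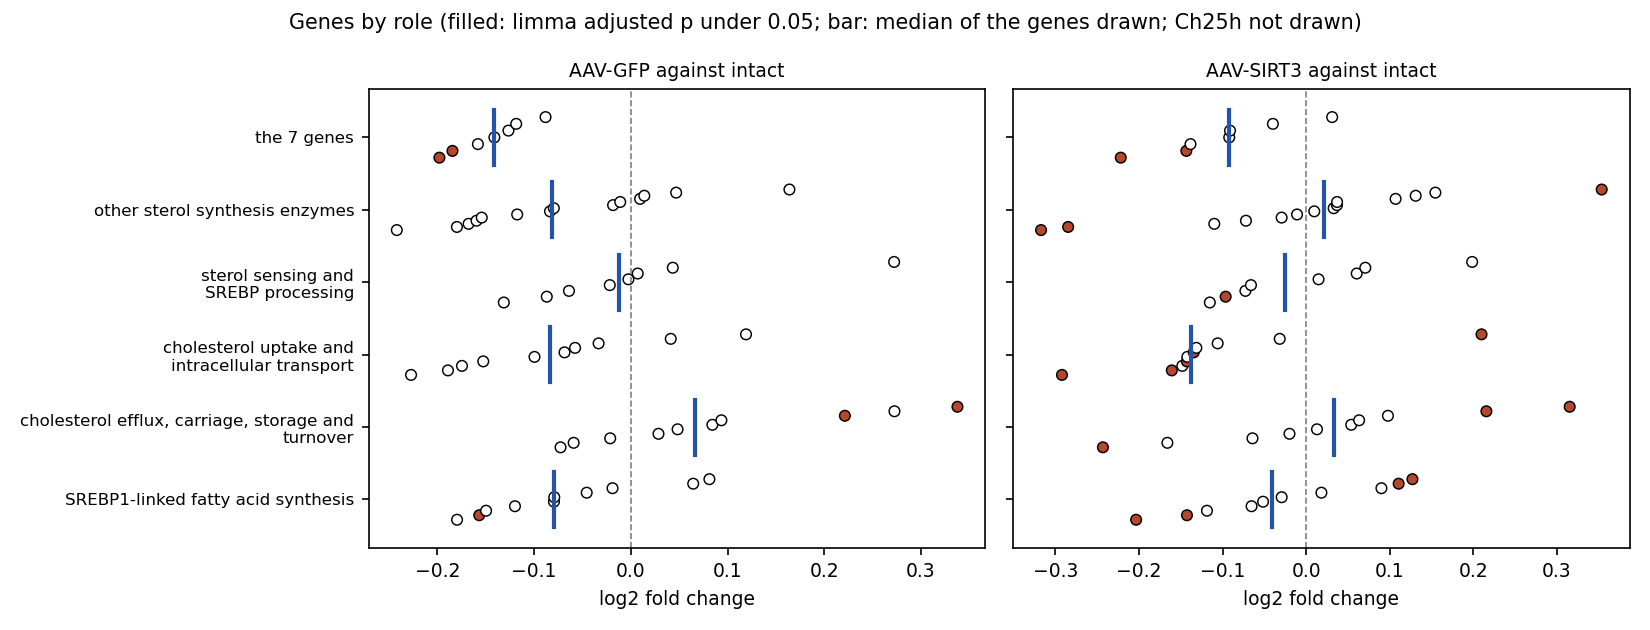
Log2 fold changes (horizontal axes) of the 7 genes and of 5 lists by role in AAV-GFP and AAV-SIRT3 against intact; each point is a gene, filled where limma's adjusted p was under 0.05, and bars are medians of the genes drawn, without Ch25h (1.68 and -0.26). The 7 genes lie from -0.20 to -0.09 in AAV-GFP, where Apoe and Clu are the filled points on the right at 0.34 and 0.22.

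In AAV-SIRT3 against AAV-GFP limma called 0 genes of these 5 lists, edgeR called 0, and DESeq2 called 1 higher among the sterol enzymes and 2 lower among the efflux genes. At an unadjusted p under 0.05 the lists held 4 of 14 sterol enzymes, all higher, 1 of 8 sensing genes, lower, 2 of 10 uptake genes, both lower, 4 of 11 efflux genes, all lower, and 2 of 10 fatty acid genes, both higher. Over all genes 15.2% had such a p, 8.13% higher and 7.12% lower. Srebf2 was at 0.07 (adjusted p = 0.384) and Insig2 at 0.04 (adjusted p = 0.68).

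Markers of other cells and of neighbouring tissue moved with the groups. In bulk tissue, fewer cells of a type and less RNA per cell cannot be told apart. The 8 thalamus markers, all detected, summed to 37977 to 76057 normalised reads for intact, 63505 to 74609 for AAV-GFP and 62307 to 81739 for AAV-SIRT3, and intact replicates 1, 3 and 5 were the 3 lowest. The 7 microglia markers summed to 17858 to 20601, 19509 to 24661 and 19539 to 22178, and the 6 anterior pituitary markers to 739.9 to 5425, 251 to 698 and 239 to 805. None of the markers of the 11 lists was at 0 in all libraries of a group.

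The 10 mature oligodendrocyte markers, from the cells that make myelin, summed to 824498 to 1012032 for intact, 857791 to 983234 for AAV-GFP and 839414 to 970819.9 for AAV-SIRT3, ranges that overlapped. Intact replicate 1 had the highest sum. Over the 18 libraries with group means removed, the mean of the 7 genes correlated with the oligodendrocyte score at r = 0.63 (Spearman's rho 0.47), with the thalamus score at -0.55 (rho -0.46) and with the astrocyte score at -0.23 (rho -0.19). Without the 2 libraries farthest from the median score, intact replicate 1 and AAV-SIRT3 replicate 4, the oligodendrocyte value was 0.38. Without intact replicates 1 and 2 the thalamus value was -0.20, and without AAV-GFP replicate 5 and AAV-SIRT3 replicate 6 the astrocyte value was -0.03, so these relations rest on a few libraries.

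The calls of Lss and Sqle depended on these scores. With the thalamus score as a covariate, Lss was at -0.14 in AAV-GFP (adjusted p = 0.386) and -0.16 in AAV-SIRT3 (adjusted p = 0.0984) against intact, and Sqle at -0.12 (0.436) and -0.07 (0.439). With intact replicates 1, 3 and 5 left out, a choice made after the data were seen, Lss was at -0.15 in AAV-GFP (adjusted p = 0.305) and -0.18 in AAV-SIRT3 (adjusted p = 0.0413). With the dopaminergic score, Lss was at -0.12 (adjusted p = 0.304) and -0.20 (adjusted p = 0.00286). With the microglia score it was at -0.24 (adjusted p = 0.182) and -0.26 (adjusted p = 0.0283), and with the oligodendrocyte score at -0.23 (adjusted p = 0.00864) and -0.26 (adjusted p = 0.0012). Scores and groups are partly confounded here and cannot be told apart fully. For the list genes named above, the number of calls lost differed between settings. Lrp8, which passed in AAV-SIRT3 against intact, was not followed under these settings. Of the 15 others that passed in that comparison, 12 lost the call with the thalamus score, all but Apoe, Lrp1 and Pmvk. With the microglia score 12 lost it, all but Cyp46a1, Lrp1 and Pmvk. Without intact replicates 1, 3 and 5, 9 of the 15 lost it. Over all genes the 4214 calls fell to 1216, 1682 and 1686 in these settings, in that order. Of the 15, 14 kept the call with the dopaminergic score, 13 with the astrocyte score and 12 with the oligodendrocyte score. Without the 2 choroid plexus libraries 11 kept it. With length and GC trends removed 9 of the 15 lost it, and 3595 of all genes passed. With those trends removed Lrp1 kept its call at -0.15, while Acaca was at -0.08, Fasn at -0.07, Abca1 at -0.10 and Mbtps1 at -0.04. Of the 4 that passed in AAV-GFP against intact, the calls of Clu, Ch25h and Fasn were lost with the thalamus score and all 4 with the microglia or the dopaminergic score. Over all genes the 358 calls of that comparison fell to 28 with the thalamus, 0 with the microglia and 5 with the dopaminergic score. Such losses were therefore not particular to these genes. All 4 kept the call with the oligodendrocyte score, and Apoe and Clu kept it with the astrocyte score. Apoe was at 0.15 in AAV-GFP (adjusted p = 0.416) and 0.06 in AAV-SIRT3 (adjusted p = 0.648) with the microglia score.

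**Figure D5:**
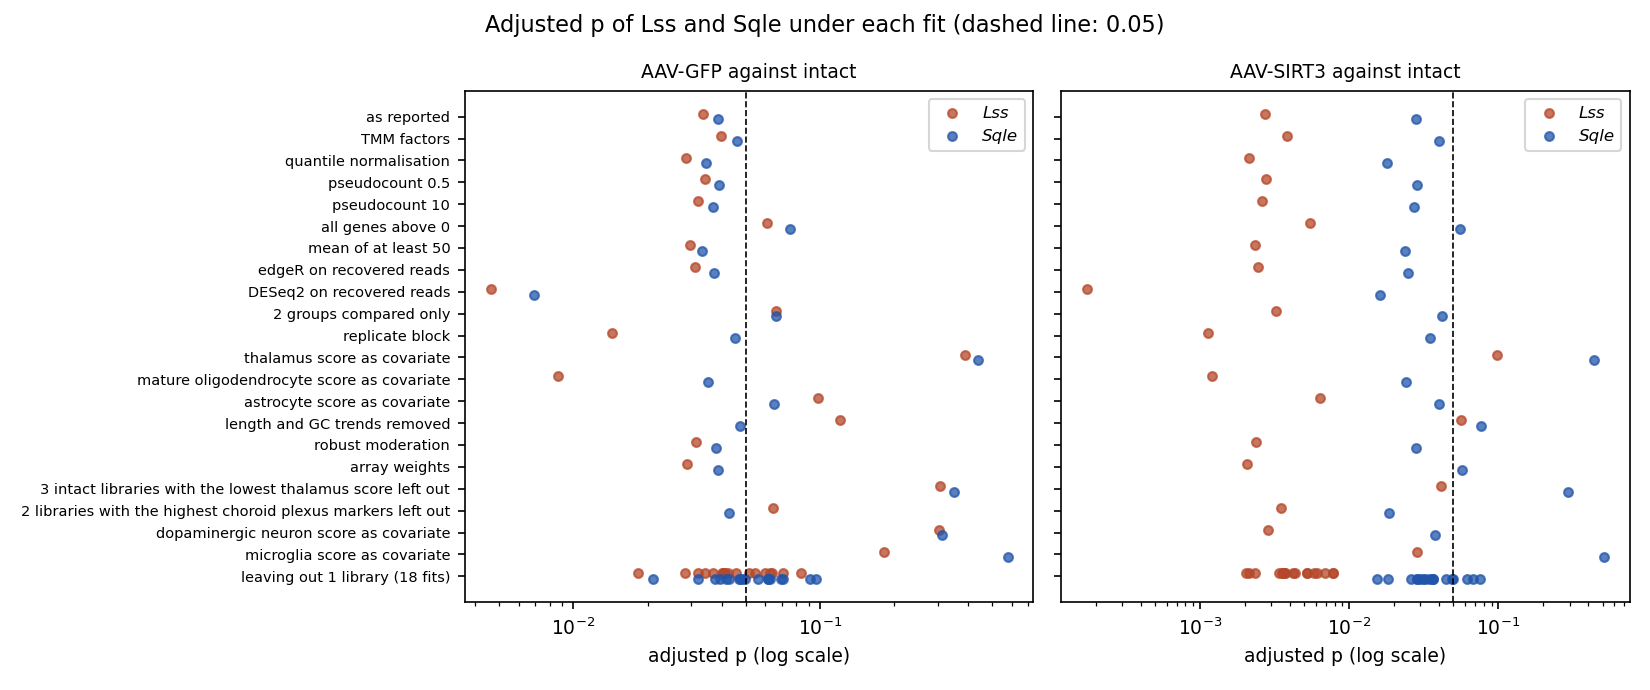
Adjusted p (horizontal log axes) of Lss and Sqle against the intact group under each analysis setting (rows), with the dashed line at 0.05; the last row holds the 18 fits that leave out 1 library. In AAV-SIRT3 against intact Lss lies left of the line in all but 2 rows, those with the thalamus score (0.0984) and with length and GC trends removed (0.0565).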

How the data were processed

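Poly-A RNA was sequenced in 18 libraries, read in pairs, per the labels' protocols. Each deposited value is a gene's signal in 1 library, an HTSeq read count normalised with DESeq2 going by the name of the authors' table. HISAT2 2.1.0, DESeq2 1.34.0 and mm10 are named in the submitters' processing notes, and the annotation, strand setting and filters are not given in the sources used here. Multiplying by each library's size factor gave whole reads (within 0.001) for 100% of values. In intact replicate 4 and AAV-SIRT3 replicate 4, size factors near 1 make this a weaker check. A row without a gene name (at most 0.000289% of a library) was left out, and 0 columns were unmatched. Library totals of recovered reads gave depth, and counting errors cover counting alone. Whether each library is a separate mouse rests on the labels.

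Values were taken as log2(value + 1). Genes at 10 or more in at least 6 libraries were tested in R 4.3.3 with limma 3.58.1, with the 3 groups in 1 model and a variance trend. Alternatives used edgeR 4.0.16 (which called 24, 361 and 4086 genes in AAV-SIRT3 against AAV-GFP, AAV-GFP against intact and AAV-SIRT3 against intact) and DESeq2 1.42.0 on recovered reads, other scalings, filters, pseudocounts, covariates and left-out libraries. A marker score is the mean centred log2 value of its list. The procedure was run on simulated data with planted changes larger than those of the 7 genes. Its power at the sizes seen here was not tested. The 7 genes and all lists were chosen with earlier results of these data known. List genes are named when they passed, at most 4 per list and comparison by p, with Srebf2 and Insig2 in any case. A few genes are not reported here and were left out of the list counts. Overlapping genes, the ratio and fits without the choroid plexus libraries or with dopaminergic or microglia scores were chosen after the data were seen.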

Additional observations from a re-analysis of the deposited data

How the results depend on the processing

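The count of the 7 genes past the threshold in AAV-GFP against intact was 2 and dropped to 0 with all genes above 0 tested, with only the 2 groups fitted, with the thalamus, astrocyte, dopaminergic or microglia score as a covariate and without the 3 intact libraries of lowest thalamus score. It was 1 with length and GC trends removed and without the 2 libraries of high choroid plexus markers, and 0 to 2 over the fits without 1 library. In AAV-SIRT3 against intact the count was 2, against 0 with the thalamus score, 4 with the oligodendrocyte score, 1 with all genes above 0, length and GC trends removed, array weights, the microglia score or the 3 intact libraries left out, and 1 to 3 without 1 library. In AAV-SIRT3 against AAV-GFP it was 0 under all of the settings run.

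Directions changed for values near 0. In AAV-SIRT3 against AAV-GFP, Cyp51 was 0.00074 with TMM factors, 0.0018 with the thalamus score, 0.0169 with length and GC trends removed and 0.0067 with array weights, and -0.0325 to 0.0178 without 1 library. Lss was 0.0054 with length and GC trends removed, and Sqle -0.0084 and Insig1 -0.0255 with the dopaminergic score. Without 1 library, Dhcr7 ran from -0.0452 to 0.0051. In AAV-GFP against intact, Cyp51 was 0.0088 with the dopaminergic score and Insig2 0.0301 with the microglia score. In AAV-SIRT3 against intact, Hmgcs1 was 0.0398 with the thalamus score, 0.0049 with array weights and 0.0325 without the 3 intact libraries. There Insig2 was -0.00548 with quantile normalisation, -0.0148 with the thalamus score, -0.0079 with the astrocyte score and -0.0052 without the 3 intact libraries, and -0.0014 to 0.0358 without 1 library. The cause was not tested.

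Same-numbered libraries of different groups deviated together with correlations from -0.10 to 0.18 (median -0.0053). Differently numbered ones ran from -0.25 to 0.19 (median 0.00024), so the numbers gave no sign of pairing. The check cannot show that the samples are unpaired. A replicate block left the counts of the 7 genes at 0, 2 and 2. Over all genes, AAV-SIRT3 against AAV-GFP gave 22 calls, against 309 with DESeq2, 121 with array weights, 41 with length and GC trends removed, 13 with the block, 8 with the 2 groups fitted or the choroid plexus libraries left out, 3 with the dopaminergic score and 5 to 861 without 1 library (without AAV-SIRT3 replicate 5 and AAV-GFP replicate 2). AAV-GFP against intact gave 358, against 999 with DESeq2, 655 with the astrocyte score, 638 with array weights, 199 with the 2 groups fitted, 164 with all genes above 0, 28 with the thalamus score, 10 without the 3 intact libraries, 5 with the dopaminergic score, 0 with the microglia score and 129 to 686 without 1 library. AAV-SIRT3 against intact gave 4214, against 1216 with the thalamus score, 1682 with the microglia score and 1686 without the 3 intact libraries. Scaling moved the median gene by at most 0.0139 (log2), with quantile normalisation in AAV-SIRT3 against intact. With a mean of at least 50 Ch25h was not tested.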
